A study of Macaca fuscata with 12 samples.

Results

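The genes examined here are named as protein subunits of the 2 kinds of ribosome in a primate cell, or as paralogues of them. They were compared between monkeys trained in tool use and control monkeys in 2 areas of the cerebral cortex. Members were all probe sets to which the array's gene table gives 1 symbol of the form RPL, RPS or RPLP (cytosolic ribosome) or MRPL or MRPS (mitochondrial ribosome) followed by a number. This gave 164 of 52766 probe sets, for 101 of 14132 genes with 1 symbol. The cytosolic class held 67 probe sets for 39 genes, by name 26 of the large and 13 of the small subunit. It includes the paralogues RPL3L, RPL7L1, RPL22L1, RPL26L1 and RPS27L, and it lacks some subunits: of 3 P stalk proteins 2 were measured. The mitochondrial class held 97 probe sets for 62 genes, 40 of the large and 22 of the small subunit. A further 32 probe sets carry a cytosolic ribosomal protein symbol beside other symbols and were not members, nor was 1 such mitochondrial probe set.

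The 12 arrays were hybridised with RNA of Japanese macaques (Macaca fuscata), left hemisphere, in 4 groups of 3 arrays. SII stands for tissue around the lateral sulcus with the secondary somatosensory cortex, and IPS for tissue around the intraparietal sulcus. The SII trained animals were 5 years 7 months, 3 years 10 months and 5 years 1 month old, and the SII control animals 4 years 6 months, 5 years 4 months and 5 years 10 months. The IPS trained animals were 5 years 7 months, 6 years and 5 years 1 month old, and the IPS control animals 5 years 4 months, 5 years 10 months and 3 years 9 months. SII trained 2 and SII control 1 came from females and the other 10 arrays from males, so every IPS array was male. Both female arrays and IPS trained 3 are the 3 arrays with raised hybridisation controls, so in SII sex and raised controls cannot be told apart. The arrays came from 8 animals, of which 4 gave both regions: 334M and 348M, which were trained, and 347M and 354M, which were controls. The labels describe the training only as tool use and give no date of hybridisation, and they name the SII and IPS arrays by different code words.

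The cytosolic ribosome translates all messages of the nuclear genome and, in neurons, also works in dendrites and axons, where local synthesis takes part in lasting changes of synapses. Its proteins are made in balanced amounts, and their messenger RNAs share a 5′ terminal pyrimidine tract through which the growth pathway around mTOR controls their translation. The mitochondrial ribosome descends from a bacterial one and translates only the few messages of the mitochondrial genome, which encode core parts of the respiratory chain. All of its proteins are encoded in the nucleus, and many of them have no bacterial counterpart.

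Values are log2 units around each probe set's own median over the 12 arrays, so they give differences and no levels. A rough class of signal was recovered for each probe set, high (at least 256 in at least 11 arrays), middle (at least 16), low, or at a floor shared by at least 2 arrays. Among cytosolic probe sets 38 were of high (56.7%), 16 of middle and 11 of low signal, and 2 were at the floor, the only RPL3L probe set and 1 of the 5 for RPS16. Among mitochondrial ones 20 were of high (20.6%), 66 of middle and 11 of low signal. Over all probe sets 7.87% were high and 39.7% middle. Within groups the high-signal members repeated about as closely as other probe sets of that signal: the median SD was 0.22 for cytosolic, 0.21 for mitochondrial and 0.23 for all high-signal probe sets. For middle signals the median SD was 0.28 for cytosolic and 0.27 for mitochondrial probe sets, and 0.36 over all. Low-signal members had median SDs of 0.82 (cytosolic) and 0.66 (mitochondrial), so a low-signal difference rests on far noisier values. Neuron, astrocyte and oligodendrocyte markers of the tissue were bright. Of 8 listed neuron markers 4 were measured, with 6 probe sets of high, 3 of middle and 1 of low signal. Of 6 astrocyte markers 4 were measured, with 4 probe sets of high and 2 of middle signal. The 2 measured of 6 oligodendrocyte markers had high signals only.

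In each array the median over the genes of a class was taken first, with probe sets of a gene averaged. In the SII trained arrays the cytosolic median was -0.022, 0.14 and -0.088, and in the SII control arrays 0.084, -0.10 and -0.092. In the IPS trained arrays it was 0.20, -0.00017 and -0.043, and in the IPS control arrays 0.021, -0.011 and 0.026. The trained and control values overlapped in both regions, and the IPS control arrays lay closest together.

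The mitochondrial median was -0.073, 0.11 and -0.029 in the SII trained arrays, against 0.061, -0.060 and -0.012 in the SII control arrays. In the IPS trained arrays it was 0.22, 0.10 and -0.15, against -0.012, -0.013 and -0.034 in the IPS control arrays. The IPS trained arrays thus held both the highest and the lowest mitochondrial median of all 12. IPS trained 1 carried the highest of the 12 values for 26 of 62 mitochondrial and 15 of 39 cytosolic genes. IPS trained 3 carried the lowest value for 12 mitochondrial and 3 cytosolic genes. Extremes also fell on SII arrays. SII trained 2 carried the highest value for 13 mitochondrial and 11 cytosolic genes. SII control 2 carried the lowest for 8 mitochondrial and 7 cytosolic genes. Shares over all genes are not given here.

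Expressed as group means of these array medians, the cytosolic class stood at 0.010 ± 0.12 in SII trained and -0.037 ± 0.10 in SII control animals (SD, n = 3 each). It stood at 0.052 ± 0.13 in IPS trained and 0.012 ± 0.020 in IPS control animals. The mitochondrial class stood at 0.0018 ± 0.094 in SII trained and -0.0039 ± 0.061 in SII control animals, and at 0.059 ± 0.19 in IPS trained and -0.020 ± 0.013 in IPS control animals (SD, n = 3 each). Each trained mean differed from its control mean by less than the SD of the trained arrays. In the IPS trained arrays the order of both class medians was that of other bright probe sets, and in the IPS control arrays that of neither class was: the median of all high-signal probe sets was 0.16, 0.11 and -0.052 in the IPS trained arrays and 0.0027, 0.029 and 0.017 in the IPS control arrays.

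**Figure D1:**
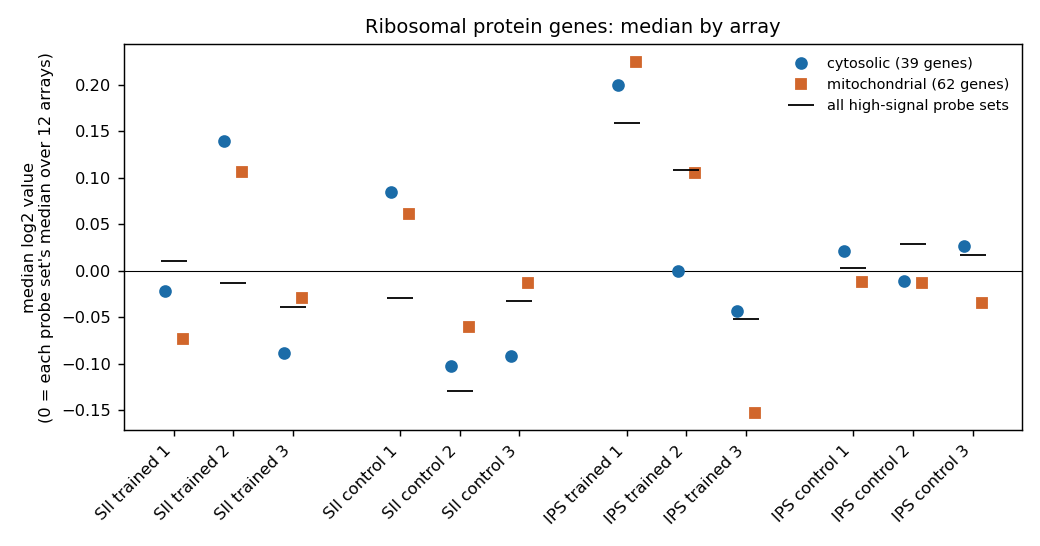
Median log2 value of the 39 cytosolic (circles) and 62 mitochondrial genes (squares) in each array, with the median of all high-signal probe sets as a dash; 0 is each probe set's median over the 12 arrays. The 3 IPS trained arrays are spread from 0.22 to -0.15 for the mitochondrial class, and the 3 IPS control arrays lie within 0.04 of 0 for both classes.

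In SII the median change of both classes lay near 0. The median change over genes, trained minus control, was 0.0056 for the cytosolic class with 20 of 39 genes higher, and 0.0087 for the mitochondrial class with 34 of 62 higher. Over all genes the median was 0.030 with 54.5% higher. The 38 high-signal cytosolic probe sets had a median change of -0.0025 with 50% higher, and the 20 high-signal mitochondrial ones -0.019 with 40% higher. Both lay below the median of all 4155 high-signal probe sets, which was 0.060 with 64.9% higher. No probe set passed 5% adjusted over all probe sets in limma, neither among the members nor elsewhere. At an unadjusted p under 5%, 1 of 164 members was called in SII, where 3.87% of all probe sets were. Among probe sets of high or middle signal, 0 of 54 cytosolic and 0 of 86 mitochondrial members were called, against 1.59% of all. Of the members 11 separated the trained from the control arrays without overlap, 5 cytosolic and 6 mitochondrial, and over all probe sets 7.08% did so.

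The single member with an unadjusted p under 5% in SII was MRPL58, a peptidyl-tRNA hydrolase built into the large mitochondrial subunit that frees stalled chains. Its low-signal probe set read -1.03, -2.42 and -0.03 in the SII trained arrays, against -0.44, 0.03 and 0.71 in the SII control arrays. The groups overlapped, and SII trained 2 was the lowest of all. The log2 change was -1.25 ± 0.55 (SE; unadjusted p = 0.045, adjusted p = 1 in limma).

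Among cytosolic genes the smallest p for a higher value in SII belonged to RPS7, a small-subunit protein that can bind the p53 inhibitor MDM2. It read 0.20, -0.53 and -0.04 in the SII trained arrays, against -0.88, -0.14 and -0.74 in the SII control arrays. The groups overlapped, and the log2 change was 0.46 ± 0.27 (SE). RPS6, whose phosphorylation by S6 kinases is a widely used readout of neuronal activity, read 0.03, 0.03 and 0.01 with 1 probe set in the SII trained arrays and -0.09, -0.03 and -0.24 in the SII control arrays. That probe set did not overlap between groups, with a log2 change of 0.14 ± 0.18 (SE), less than its own standard error. Lower in trained SII without overlap were the large-subunit proteins RPL15, at -0.17 ± 0.21 with 1 probe set (the other gave 0.0081 ± 0.34), and RPL10A, at -0.15 ± 0.23 (log2 change ± SE).

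MRPS5, the counterpart of bacterial ribosomal protein S5, gave the largest upward change of a mitochondrial probe set in SII. That middle-signal probe set read 0.16, 1.95 and -0.07 in the SII trained arrays, against -0.27, -1.78 and -0.23 in the SII control arrays. The groups did not overlap, but SII trained 2 and SII control 2 stood far from the rest of their groups. The log2 change was 1.42 ± 0.70 (SE), while another MRPS5 probe set gave -0.85 ± 0.68 in the same comparison. MRPS16, the counterpart of bacterial S16, was higher without overlap by 0.52 ± 0.30 with 1 probe set, and the other gave -0.11 ± 0.26. MRPL9, the counterpart of bacterial L9, was lower without overlap by a log2 change of -0.45 ± 0.24, and its other probe set gave -0.089 ± 0.23.

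In IPS the mitochondrial class leaned upward in trained animals and the cytosolic class did not, as counted over genes, a description without a test over the members. The median change, trained minus control, was 0.089 for the mitochondrial class with 46 of 62 genes higher (74.2%), against 0.023 for the cytosolic class with 21 of 39 higher (53.8%). Over all genes the median was 0.029 with 54.6% higher. Counted by probe sets, 42 of 67 cytosolic (62.7%) and 70 of 97 mitochondrial members (72.2%) were higher, against 51.7% of all. Both mitochondrial subunits shared the lean, with medians of 0.081 in the large and 0.13 in the small subunit. The classes differed in their dimmer probe sets more than in the bright ones. The 38 high-signal cytosolic probe sets had a median change of 0.10 with 31 higher, and the 20 high-signal mitochondrial ones 0.088 with 17 higher. All 4155 high-signal probe sets had a median of 0.048 with 63.7% higher. The 16 middle-signal cytosolic probe sets had a median of -0.12, against 0.081 for the 66 middle-signal mitochondrial ones and -0.0073 for all middle-signal ones. The 11 low-signal cytosolic probe sets had -0.42, against 0.13 for the 11 low-signal mitochondrial ones and -0.018 for all low-signal ones.

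The size of the lean moved with single arrays. Without IPS trained 1 the mitochondrial median change was 0.0037, and without IPS trained 3 it was 0.19. The cytosolic median change was -0.044 without IPS trained 1 and 0.11 without IPS trained 3. Without the 3 arrays with raised hybridisation controls, of which IPS trained 3 is the only IPS array, the mitochondrial median change was 0.18. IPS trained 3 also had the lowest neuron marker median of the 12 arrays (-0.44, against 0.22 and 0.24 in the other IPS trained arrays and -0.14 to 0.018 in the IPS control arrays) and the widest gap between the 3′ and 5′ GAPDH probe sets (0.89), a reading of RNA length. The part of these in the result was not tested. In tissue RNA, fewer cells of a type and less RNA per cell cannot be told apart.

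**Figure D2:**
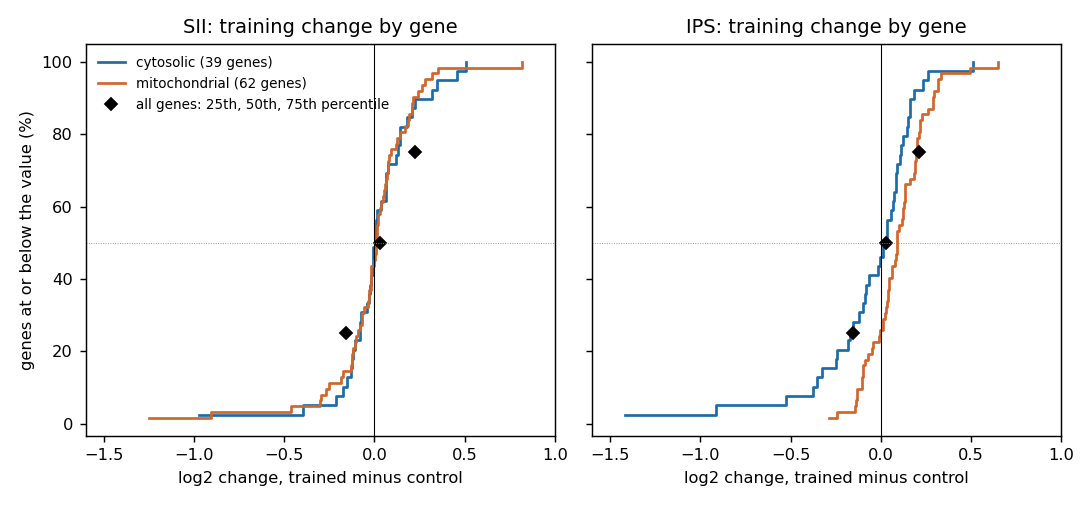
Cumulative share of genes (vertical, percent) by log2 change, trained minus control (horizontal), for the 39 cytosolic and 62 mitochondrial genes in SII (left) and IPS (right); diamonds mark the 25th, 50th and 75th percentile of all genes. In SII the classes lie on each other around 0, and in IPS the mitochondrial curve lies to the right, with 74.2% of its genes above 0.

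No member passed 5% adjusted over all probe sets in IPS. At an unadjusted p under 5%, 1 of 164 members was called, against 3.27% of all probe sets. Among probe sets of high or middle signal, 0 of 54 cytosolic and 1 of 86 mitochondrial members were called, against 1.31% of all. Of the members 14 separated trained from control arrays without overlap, 6 cytosolic, which were all higher, and 8 mitochondrial, of which 6 were higher and 2 lower. Over all probe sets 9.49% did so, 5.77% higher and 3.72% lower. The member with the smallest p was MRPL57, a small protein of the large mitochondrial subunit. Its middle-signal probe set read -0.48, -0.18 and 0.19 in the IPS trained arrays, against -0.48, -0.89 and -0.98 in the IPS control arrays. IPS trained 1 and IPS control 1 lay next to each other, so the groups just overlapped, and the log2 change was 0.63 ± 0.24 (SE; unadjusted p = 0.024, adjusted p = 1 in limma). The other 2 MRPL57 probe sets gave 0.23 ± 0.26 and 0.084 ± 0.30.

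The cytosolic members that did not overlap in IPS were mostly bright and small in change. RPS18, a protein of the head of the small subunit, read 0.18, 0.14 and 0.12 in the IPS trained arrays, against 0.02, -0.10 and -0.18 in the IPS control arrays. Its log2 change was 0.23 ± 0.19 (SE). RPS21, another small-subunit protein, read 0.03, 0.26 and 0.28 in the IPS trained arrays, against -0.08, -0.03 and -0.08 in the IPS control arrays, a log2 change of 0.26 ± 0.23 (SE). Larger but noisier values came from low-signal probe sets. RPL5, which carries 5S ribosomal RNA into the large subunit and can bind MDM2, read -2.48, -0.54 and 0.33 in the IPS trained arrays, against 0.51, -0.03 and 0.96 in the IPS control arrays. Its log2 change was -1.42 ± 0.80 in IPS and -0.97 ± 0.80 in SII (SE), and in each region 1 trained array stood far below the rest. Without IPS trained 1 the change in IPS was -0.59, and without SII trained 2, which read -2.43, that in SII was -0.12. In SII it turned to 0.18 without the arrays with raised hybridisation controls and to 0.14 in males only. RPL35A, mutated in some cases of Diamond-Blackfan anaemia, had 1.09 ± 0.76 with its low-signal probe set and 0.17 ± 0.23 and 0.27 ± 0.43 with the high-signal ones.

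The interaction term asked whether training changed a gene differently in IPS than in SII. No member passed 5% adjusted over all probe sets. At an unadjusted p under 5%, 3 of 164 members were called, against 3.68% of all probe sets. Among probe sets of high or middle signal, 0 of 54 cytosolic and 2 of 86 mitochondrial members were called, against 1.45% of all. The 3 members were MRPL44, MRPL57 and MRPL30. MRPL44, a large-subunit protein with a ribonuclease III fold, read 0.57, 0.55 and 0.64 with its low-signal probe set in the IPS trained arrays, against -2.07, 0.29 and 0.19 in the IPS control arrays. In SII that probe set read -1.06, -1.17 and -2.59 in the trained arrays, against -0.19, -0.84 and 0.34 in the control arrays. Trained and control did not overlap in either region, and the direction was opposite. The difference of the changes was 2.51 ± 0.87 (SE; unadjusted p = 0.016, adjusted p = 1 in limma).

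The other 4 probe sets of MRPL44, which had middle signals, gave differences between -0.10 and 0.51, and the mean of all 5 gave 0.59. For MRPL57 the difference was 0.77 ± 0.33 (SE), while its other 2 probe sets gave 0.22 and -0.067. For MRPL30, also of the large subunit, it was -0.87 ± 0.36 (SE), while its other probe set gave 0.21. The class medians of the difference were -0.060 for cytosolic genes, with 17 of 39 above 0, and 0.068 for mitochondrial genes, with 43 of 62 above 0, and over all genes the median was -0.0044 with 49.5% above 0. Without floor and low signals the cytosolic minus mitochondrial contrast of these medians was -0.0068, in place of -0.13.

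Probe sets of 1 gene often disagreed. In IPS 10 of 17 cytosolic and 11 of 24 mitochondrial genes with several probe sets had training changes of opposite sign among them, and in SII 11 of 17 and 15 of 24 did. RPS16 had the widest spread among cytosolic genes: its 5 probe sets spanned 1.95 log2 units of change in IPS. Bright genes whose probe sets lay close together in IPS were RPS6, with changes of 0.0017 and 0.020, and RPL26, with 0.014 and 0.098.

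**Figure D3:**
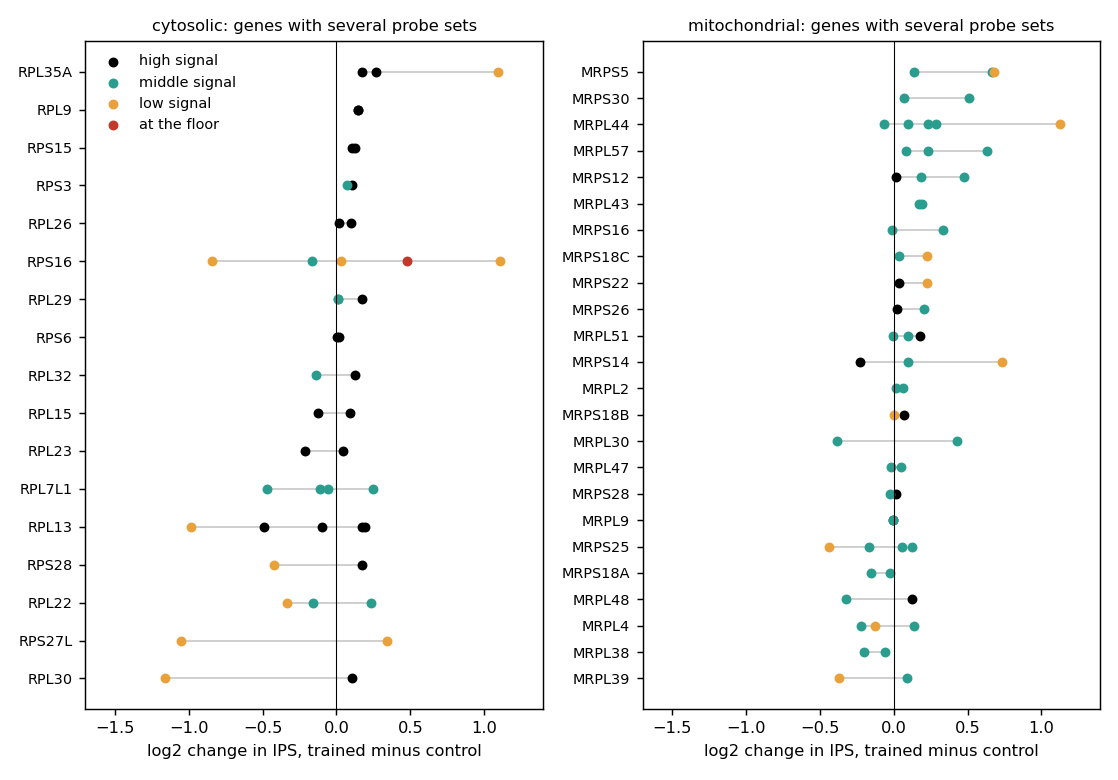
Log2 change in IPS, trained minus control (horizontal), of every probe set of the 17 cytosolic (left) and 24 mitochondrial genes (right) with several probe sets, coloured by signal. Changes beyond 1 log2 unit in either direction come from low-signal probe sets, and the high-signal probe sets of a gene lie close together with few exceptions such as RPL13.

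Between regions, the comparison ran over all 12 arrays as IPS minus SII, averaged over training. The median difference was 0.042 for the cytosolic class with 27 of 39 genes higher, and 0.042 for the mitochondrial class with 34 of 62 higher. Over all genes the median was -0.026 with 46.7% higher. Of the high-signal members 65.8% of the cytosolic and 65% of the mitochondrial ones were higher in IPS, against 67.1% of all high-signal probe sets. Their medians were 0.047 for the cytosolic and 0.13 for the mitochondrial members, against 0.10 for all high-signal probe sets. The 66 middle-signal mitochondrial members had a median of -0.0044 with 48.5% higher, against 0.029 with 53.4% higher for all middle-signal probe sets. By subunit, 11 of 13 genes of the small cytosolic subunit were higher with a median of 0.044, and 13 of 22 of the small mitochondrial subunit with a median of 0.058.

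No member passed 5% adjusted over all probe sets in this comparison, where the smallest adjusted p of a member was 0.42. At an unadjusted p under 5%, 10 of 164 members were called, 6.10%, against 9.26% of all probe sets. The 4 cytosolic ones were all higher in IPS, and of the 6 mitochondrial ones 2 were higher and 4 lower. Over all probe sets 4.08% were higher and 5.18% lower at that threshold. With high or middle signal, 4 of 54 cytosolic and 6 of 86 mitochondrial members were called, against 10.3% of all. The 4 cytosolic ones had high signals, and of all high-signal probe sets 8.66% were called higher and 2.67% lower. A single member, RPL32, separated the 6 IPS from the 6 SII arrays without overlap, against 0.984% of all probe sets.

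RPL32, a large-subunit protein, read 0.51, 0.48 and 0.03 in the IPS trained and 0.18, 0.23 and 0.23 in the IPS control arrays. The same high-signal probe set read -0.03, -0.56 and -0.31 in the SII trained and -0.75, -0.21 and -0.09 in the SII control arrays. The lowest IPS array lay just above the highest SII array. The log2 difference was 0.59 ± 0.18 (SE; unadjusted p = 0.0067, adjusted p = 0.43 in limma), and the second RPL32 probe set gave 0.67 ± 0.43. It was 0.43 with sex as a covariate, the lowest of its alternatives.

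RPL26, a large-subunit protein that can bind p53 messenger RNA, read 0.14, 0.16 and 0.07 in the IPS trained and -0.05, 0.18 and 0.19 in the IPS control arrays. The SII trained arrays gave 0.05, -0.60 and -0.39, and the SII control arrays -0.41, -0.47 and -0.12. SII trained 1 lay among the IPS arrays. The log2 difference was 0.43 ± 0.16 (SE), while the second RPL26 probe set gave 0.020 ± 0.14.

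RPL23, which can bind MDM2, had the largest difference of a high-signal member, 0.91 ± 0.28 (SE). Its probe set read 0.14, -0.14 and 0.59 in the IPS trained and 0.46, 0.20 and 0.59 in the IPS control arrays, against -0.14, -0.50 and -1.04 in the SII trained and -1.07, -1.10 and 0.24 in the SII control arrays. The name of that probe set ends in x, the maker's mark for probes that may detect other transcripts, and the second RPL23 probe set gave -0.035 ± 0.14. RPS7 had 0.44 ± 0.19 with its only probe set.

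Of the mitochondrial members, MRPL51, a large-subunit protein, had a log2 difference of 0.40 ± 0.14 (SE), and its other 2 probe sets gave 0.074 and -0.018. MRPS26, a small-subunit protein without bacterial counterpart, read 0.085, 0.29 and 0.16 in the IPS trained and 0.0018, 0.024 and -0.12 in the IPS control arrays. It read 0.0053, -0.0018 and -0.30 in the SII trained and -0.20, -0.51 and -0.57 in the SII control arrays. Both its probe sets gave a similar difference, 0.34 ± 0.14 and 0.32 ± 0.15 (SE), and the mean of the 2 gave 0.33 ± 0.11 (unadjusted p = 0.011 in limma).

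MRPL57 was the lowest of the members in IPS by p, at -0.60 ± 0.17 (SE; unadjusted p = 0.0046, adjusted p = 0.42 in limma). Its SII values were 0.17 at most and -0.13 at least in the trained arrays and 0.15 to 0.26 in the control arrays, with the IPS values as given above. Its other 2 probe sets gave -0.091 and -0.0040. MRPS12, the counterpart of the bacterial decoding protein S12, had -0.57 ± 0.23, MRPL38, a protein of the central protuberance of the large subunit, -0.52 ± 0.22, and MRPL9 -0.43 ± 0.17 (log2 difference ± SE). Each of these 3 genes has another probe set with a difference above 0. Without the 3 arrays with raised hybridisation controls the differences of MRPL38, MRPS12 and MRPL9 were -0.21, -0.36 and -0.26, and with sex as a covariate that of MRPL38 was -0.29. Of the 10 genes only RPL32 and MRPS26 had a second probe set with a difference of like size.

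**Figure D4:**
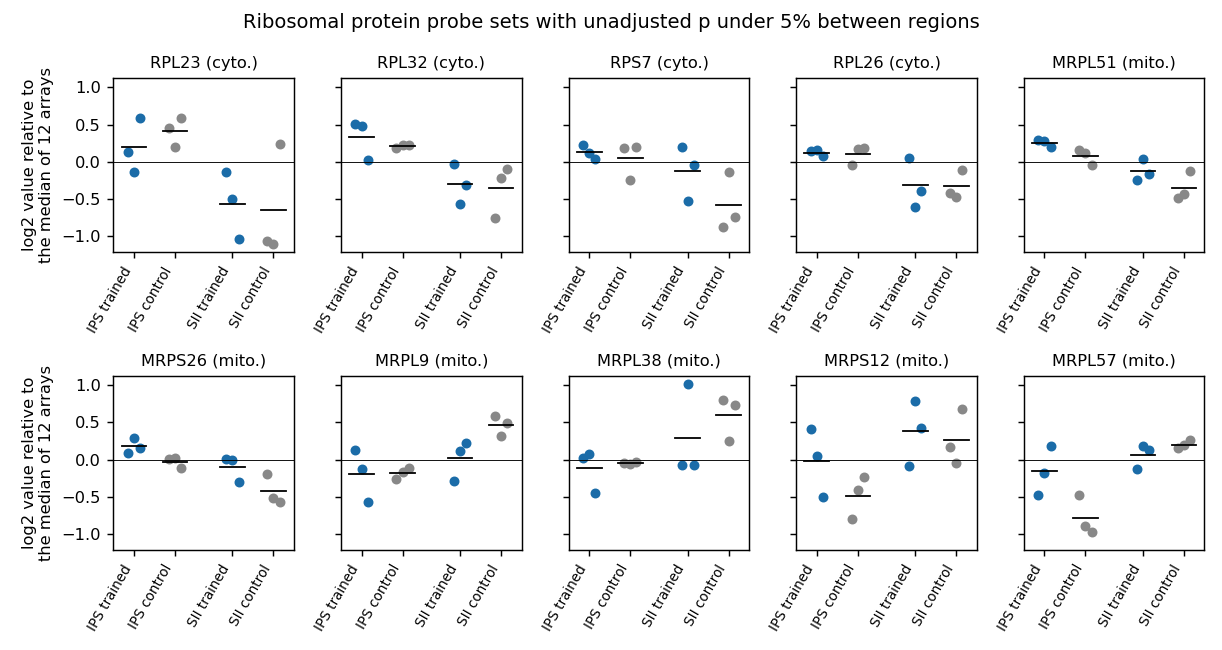
Log2 values by array (points, 3 per group, trained in blue and control in grey) and group means (bars) for the 10 member probe sets with an unadjusted p under 5% between IPS and SII. RPL32 alone separates the 6 IPS from the 6 SII arrays, and several SII groups spread over more than 0.5 log2 units.

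Within the 4 animals that gave both regions, the cytosolic class was higher in IPS in every animal and the mitochondrial class in 3. The cytosolic median difference, IPS minus SII, was 0.18 in 334M and 0.068 in 348M (trained), and 0.15 in 347M and 0.066 in 354M (control). The mitochondrial median difference was 0.29 in 334M and -0.16 in 348M (trained), and 0.021 in 347M and 0.046 in 354M (control). The animals lay closer together for the cytosolic class than for the mitochondrial one. In 334M 55 of 62 mitochondrial genes were higher in IPS, and in 348M 23 were. Of the 39 cytosolic genes 29 were higher in IPS in 334M, 22 in 348M, 29 in 347M and 27 in 354M.

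The contrast of the classes, cytosolic minus mitochondrial, was -0.11 in 334M, 0.22 in 348M, 0.13 in 347M and 0.020 in 354M, so it did not have 1 direction. All high-signal probe sets had medians of 0.14 in 334M, -0.015 in 348M, 0.15 in 347M and 0.095 in 354M. In the control animals 347M and 354M the cytosolic class median did not exceed these. High-signal cytosolic members alone had medians of 0.20 in 334M, 0.060 in 348M, 0.16 in 347M and 0.025 in 354M. High-signal mitochondrial members had 0.36, -0.096, 0.13 and 0.079 in the same order of animals. The IPS arrays of 334M and 348M are IPS trained 1 and IPS trained 3, the arrays with the highest and lowest mitochondrial medians.

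**Figure D5:**
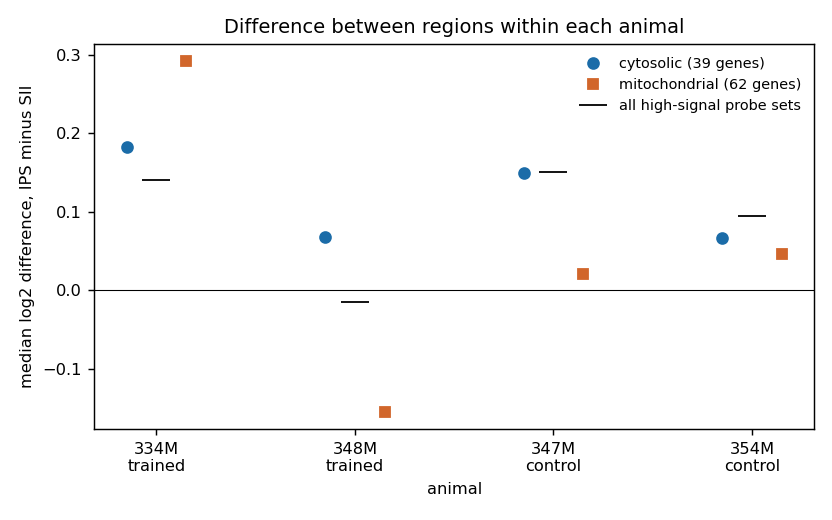
Median log2 difference, IPS minus SII, within each animal that gave both regions, for 39 cytosolic genes (circles) and 62 mitochondrial genes (squares), with all high-signal probe sets as a dash. Cytosolic medians lie between 0.066 and 0.18, and mitochondrial medians between -0.16 and 0.29.

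Fitted with animal as a block in these 4 animals, no member passed 5% adjusted over all probe sets, and at an unadjusted p under 5% there were 2 of 164, against 6.29% of all probe sets. Among probe sets of high or middle signal, 0 of 54 cytosolic and 1 of 86 mitochondrial members were called, against 4.07% of all. The 2 members were MRPS9, the counterpart of bacterial S9, and a low-signal probe set of RPS16, both higher in IPS. The mean of the 5 RPS16 probe sets differed by 0.15 in 334M, 1.03 in 348M, -0.35 in 347M and 0.038 in 354M. MRPS9 was higher in IPS by 0.45 in 334M, 0.38 in 348M, 0.66 in 347M and 0.37 in 354M on the log2 scale, a mean of 0.47 ± 0.17 (SE; unadjusted p = 0.040, adjusted p = 0.77 in limma).

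By gene means, 9 of 39 cytosolic genes were higher in IPS in all 4 animals and 0 lower, against 9.04% higher and 8.32% lower of all genes. They were RPL7, RPL26, RPL26L1, RPLP1, RPS6, RPS7, RPS18, RPS19 and RPS28. RPLP1, an acidic protein of the stalk that recruits elongation factors, was higher by 0.20 in 334M, 0.50 in 348M, 0.39 in 347M and 0.09 in 354M. RPS19, mutated in Diamond-Blackfan anaemia, was higher by 0.19 in 334M, 1.76 in 348M, 0.38 in 347M and 0.27 in 354M. RPL7, a large-subunit protein, was higher by 0.23 in 334M, 0.09 in 348M, 0.12 in 347M and 0.22 in 354M. Of 62 mitochondrial genes 11 were higher in all 4 animals, among them MRPL11 and MRPL12, which belong to the stalk of the mitochondrial ribosome, and MRPS26, and 1 was lower, MRPS2. By probe sets, 14 cytosolic and 16 mitochondrial members were higher in all 4 animals, against 9.07% of all probe sets, and 0 and 1 lower, against 7.06%. These shares were not matched for signal, and bright probe sets leaned toward IPS in general. Of all high-signal probe sets 67.6% had a mean difference above 0 (median 0.092), against 53.5% of all probe sets. High-signal members had 84.2% (median 0.079) in the cytosolic and 80% (median 0.12) in the mitochondrial class.

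The stalk protein RPLP2 read -0.02, 0.28 and -0.02 in the SII trained, 0.43, -0.19 and 0.10 in the SII control, 0.00017, -0.00017 and 0.12 in the IPS trained and -0.08, -0.04 and 0.13 in the IPS control arrays. Its changes with training were -0.041 ± 0.19 in SII and 0.032 ± 0.19 in IPS, and those of RPLP1 were 0.0050 ± 0.21 and 0.085 ± 0.21 (log2 ± SE, gene means). Of 8 listed paralogues of cytosolic proteins 6 were measured, of which RPL36AL is not a member by its name. For all 6 the signed training change was lower in IPS than in SII, with a median difference of the changes of -0.17. None passed the test, and over all genes 49.5% had a difference above 0. RPS27L, induced by p53 in human cells, had 0.50 ± 0.39 in SII and -0.35 ± 0.39 in IPS. RPL26L1 had 0.22 ± 0.18 in SII and 0.18 ± 0.18 in IPS, and RPL3L, the paralogue of striated muscle, -0.93 ± 0.72 in IPS with values partly at the floor.

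Genes on 2 lists of translation factors did not pass the test either. Of 26 measured cytosolic translation factors 19 were higher and 7 lower in trained IPS, with a median change of 0.074, and 8 were higher and 18 lower in trained SII, with a median of -0.070. The smallest p values belonged in IPS to the initiation factor subunit EIF3F, at 0.48 ± 0.24, and in SII to EIF3L, at -0.51 ± 0.30 (log2 ± SE). The list of mitochondrial translation factors also held proteins of the mitochondrial ribosome itself, AURKAIP1 among them, so it is not separate in kind from the mitochondrial class. Of its 20 measured genes 15 were higher and 5 lower in trained IPS, with a median of 0.080. In trained SII 11 were higher and 9 lower, with a median of 0.017. AURKAIP1, a protein of the small mitochondrial subunit, had 0.74 ± 0.44 in IPS and -0.81 ± 0.44 in SII, a difference of 1.55 ± 0.60 (SE; unadjusted p = 0.027, adjusted p = 1 in limma).

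Between regions, genes of ribosome assembly had a median difference of -0.093, with 9 of 25 higher in IPS, and 13 regulators of ribosomal protein synthesis a median of -0.15, with 3 higher. The smallest p values belonged to AKT1S1, an inhibitor of the mTOR complex, at -0.79 ± 0.23, to the assembly factor BYSL, at -0.34 ± 0.12, and to fibrillarin (FBL), the methyltransferase of ribosomal RNA, at 0.32 ± 0.12 (log2 difference ± SE). None of these passed 5% adjusted over all genes. Of all genes 46.7% were higher in IPS. Cell markers differed between regions in both directions. All 7 for microglia had differences below 0 with a median of -0.40, all 4 measured for astrocytes with a median of -0.13, and 4 of 5 for choroid plexus and ependyma with a median of -0.30. Differences above 0 were held by 5 of 6 markers for meninges (median 0.090), 4 of 6 for endothelial cells (median 0.087) and 3 of 4 for neurons (median 0.047). In 2 of these lists the marker with the smallest p was lower in IPS. It was FLT1 for endothelial cells, at -1.12 ± 0.23, and SLC17A7 for neurons, at -0.89 ± 0.27 (log2 difference ± SE). For oligodendrocytes 1 marker was higher and 1 lower, and for red blood cells 1 was higher and 3 lower. None of the markers passed 5% adjusted over all genes, and their part in the result was not tested.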

How the data were processed

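The authors deposited 1 table of log2 values per probe set and array, centred so that each probe set's median over the 12 arrays is 0. Per the submitters' processing notes MAS5 was used. The log base, inferred from the range, and the scaling between arrays are not given in the sources used here. Signal classes were read from how finely the deposited decimals step, which coarsens as signal grows. Groups, animals and replicate numbers came from the labels, which do not say whether the arrays had separate extractions.

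All 52766 probe sets that are not controls entered limma 3.58.1 (R 4.3.3; statmod 1.5.0), modelled by group, by a shared correlation of 0.0474 for arrays from 1 animal and with moderated variances, or, in the 4 animals with both regions, animal as a fixed block. P-values are 2-sided and were adjusted by Benjamini-Hochberg over all probe sets of a comparison. The script was tested on simulated data. The number of arrays limits the precision: the median SE of a training change was 0.23 for high-signal members and 0.44 over all probe sets.

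A gene's change is the mean over its probe sets, and lists were counted on fits of gene means. Named were, per comparison over 12 arrays, the 4 genes of each class and direction with the smallest p as candidates, the P stalk, the paralogues and 2 genes of each list, of which the text gives those that matter; RPS6, RPL7 and the genes listed as higher in all 4 animals were picked after their values were seen. The members and lists were chosen with earlier results of these data known. Same-numbered replicates did not deviate together (correlations -0.20 to 0.061), and no sequence was used here.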

Additional observations from a re-analysis of the deposited data

How the results depend on the processing

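No member passed 5% in any of 16293 member fits over 29 alternative settings, and the smallest adjusted p there was 0.19. Over all probe sets the count past 5%, 0 in each comparison as reported, was 1 in SII with quantile normalization and without floor or low signals, 2 with array weights and 2 with sex as a covariate. Between regions it was 5 with quantile normalization, 2 with sex as a covariate, 1 without floor or low signals and 3 with gene means, and for the difference of the changes 1 without the 3 arrays with raised controls. Leaving out 1 array in turn gave 0 to 3 probe sets in SII (3 without SII trained 3), 0 to 2 in IPS and 0 to 2 for the difference (2 in both without IPS trained 1), and 0 to 14 between regions (14 without SII trained 3). With the replicate block no comparison had a probe set past 5% (0 in SII and in IPS).

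The cytosolic minus mitochondrial contrast of median changes was -0.0032 in SII (-0.023 to 0.065 with 1 array left out), -0.066 in IPS (-0.093 to -0.036) and -0.13 for the difference of the changes (-0.19 to -0.014; -0.0068 without floor or low signals). Between regions it was 0.00026 (-0.041 to 0.071), and in the 4 animals 0.032 (-0.0099 to 0.17, the highest without 334M). Taken in each array, the cytosolic minus the mitochondrial median had an SD within groups of 0.069 over the 12 arrays. It was -0.0068 ± 0.11 in IPS trained and 0.032 ± 0.029 in IPS control arrays (SD, n = 3 each). In SII trained arrays it was 0.0084 ± 0.059 and in SII control arrays -0.033 ± 0.052 (SD, n = 3 each). Of the named genes, in SII RPS16 turned to -0.11 in males only and to -0.14 without the 3 arrays with raised controls, RPL5 to 0.14 and 0.18, and RPL13 to 0.037 and 0.014, under the same settings, both of which drop the same 2 SII arrays. With gene means RPL22 turned to -0.085, RPS16 to 0.13 and MRPL30 to 0.015 in IPS, and MRPL48 to 0.0088 for the difference. The cause was not tested. Another background correction could not be run on centred values. Signal over background is unknown here, so low-signal members give no firm statement.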
